A study of Homo sapiens with 10 samples.

Results

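The stretch of the short arm of human chromosome 8 from base 5000001 to base 25000000 (hg38) is described here through its RNA-DNA hybrid peaks. Overlapping peaks of 5 DRIP libraries were merged, and a merged region was kept where it started in that stretch. This gave 1059 of the 177039 merged regions of the genome, beside 6904 on the rest of chromosome 8. The stretch was selected on measured values: its share of peak bases was higher in SCAN1 than in WT libraries in bins of 5 Mb. SCAN1 against WT values of the stretch are therefore given as descriptions. A fit of that contrast across all genes is reported for the genome, and nothing is read from how often such differences occurred here.

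The study profiled hybrids in U2OS, an osteosarcoma cell line, by DRIP-seq: nucleic acids are sonicated and the hybrids among them are captured with the antibody S9.6. WT cells gave 2 libraries, and cells with the TDP1 H493R (SCAN1) genotype gave 3, of which SCAN1#1 gave replicates 1 and 2 and SCAN1#2 gave replicate 2. Replicate 1 of WT and SCAN1#1 is called experiment 1 and the libraries of replicate 2 experiment 2. Each experiment used its own lots of the antibody. The labels name no treatment, do not say whether SCAN1#1 and SCAN1#2 are clones, and do not say that replicates came from separate cultures, so the p-values below measure the spread between these samples only. The 5 input samples of the series were not analysed here.

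An R-loop forms when RNA pairs with the template strand of DNA and displaces the other strand, often near the start and end of transcribed genes. TDP1 removes topoisomerase I that is trapped on DNA, a lesion that arises during transcription, and its H493R change causes the ataxia and neuropathy called SCAN1. The distal short arm of chromosome 8 carries the defensin cluster with its duplicated flanks, very long genes such as DLC1 and SGCZ, and the TRAIL receptor genes, and it is often lost in epithelial tumours.

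The deposited peak lists held 63456 to 110745 peaks per library. SCAN1#1 replicate 1 had the shortest list and SCAN1#1 replicate 2 the longest, so counts are also given per 100000 peaks of the library, or from the 63456 peaks of best p-value in each. The files carry peaks and no reads, so intervals for counting error could not be set. Of 7 bone and mesenchymal marker genes, 6 held a peak and 5 held one in every library, while TWIST1 held none. Over all protein-coding genes, 81.3% held a peak and 53.6% held one in every library. Of 6 markers of other cell types, ALB, CD3E, HBB, INS and TSHB held none, and EPCAM held a peak in all 5 libraries. A peak is not a level of expression, so this check bears only loosely on the cell type.

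The share of all peak bases that fell in the stretch was 0.272% in WT replicate 1 and 0.330% in WT replicate 2. It was 0.449% in SCAN1#1 replicate 1, 0.570% in SCAN1#1 replicate 2 and 0.572% in SCAN1#2 replicate 2. All 3 SCAN1 libraries lay above both WT libraries. The means were 0.301% ± 0.0415 (SD, n = 2) for WT and 0.530% ± 0.0705 (SD, n = 3) for SCAN1, a ratio of 1.76. Within the experiments the ratio was 1.65 for SCAN1#1 in experiment 1, and 1.73 for SCAN1#1 and 1.73 for SCAN1#2 in experiment 2. The last pair of ratios shares WT replicate 2 as its control. These are the values that chose the stretch.

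The number of peaks behind these shares was 269 in WT replicate 1, 354 in WT replicate 2, 348 in SCAN1#1 replicate 1, 737 in SCAN1#1 replicate 2 and 596 in SCAN1#2 replicate 2. In absolute number, WT replicate 2 therefore had more peaks here than SCAN1#1 replicate 1, and the order by genotype appears once the length of each list is taken into account. With lists of equal length the share of peak bases was 0.293% ± 0.0442 (SD, n = 2) in WT and 0.498% ± 0.0429 (SD, n = 3) in SCAN1.

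The share was higher in each 5 Mb bin of the stretch, as its choice required. For bins of 5 Mb, 500 bases were added to the peak bases of each library before the ratio was taken. The 4 bins of the stretch gave log2 ratios of SCAN1 over WT of 0.67, 0.56 and 0.39 for 5 to 10 Mb and 0.83, 0.94 and 0.99 for 10 to 15 Mb, in the order SCAN1#1 experiment 1, SCAN1#1 experiment 2, SCAN1#2 experiment 2. The next bins gave 1.09, 1.00 and 0.98 for 15 to 20 Mb and 0.65, 0.73 and 0.78 for 20 to 25 Mb. Of the 578 bins of the genome with at least 10 peaks on average, 23 (3.98%) were higher by over 0.3 (log2) in all 3 comparisons, and they include all 4 bins here, which is how the stretch was chosen.

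The edges of the stretch follow from the choice by 5 Mb bins. The ratios changed at the outer edge at 25 Mb and less sharply at 5 Mb. The bin from 25 to 30 Mb gave log2 ratios of 0.06, -0.04 and 0.06. With no bases added, the first 5 Mb of the chromosome gave 0.37, 0.42 and -0.19, from only 10 to 43 peaks per library. From 45 Mb to the end of the chromosome the log2 ratios were -0.07, -0.09 and -0.09. The bin from 40 to 45 Mb, outside the stretch, was again higher in SCAN1, with 0.79, 0.72 and 0.74.

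**Figure D1:**
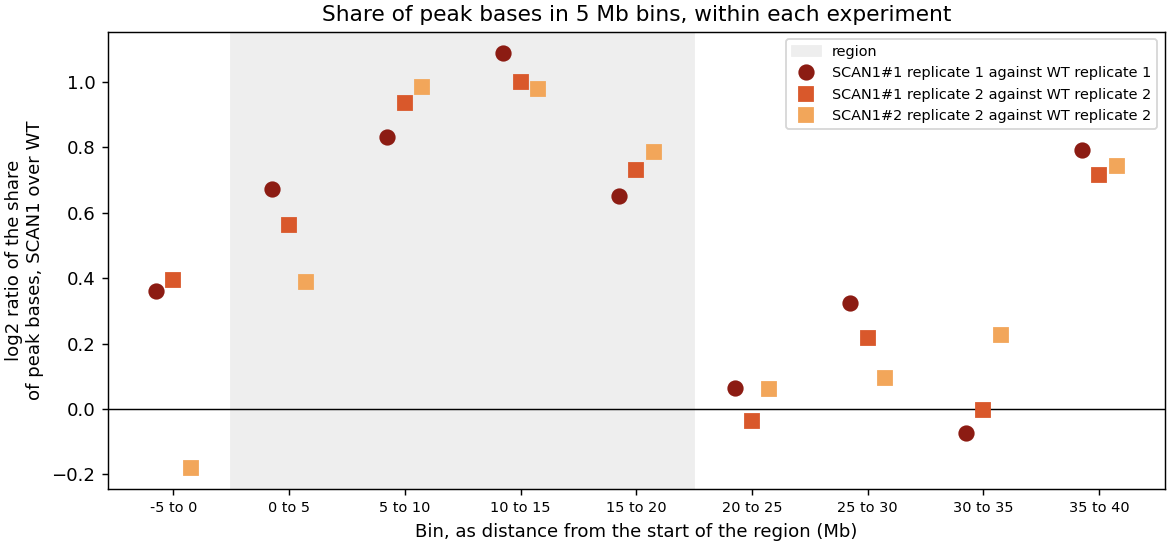
Each point is the log2 ratio of the share of peak bases, SCAN1 over WT of the same experiment, in a 5 Mb bin of the first 45 Mb of chromosome 8, placed by distance from the start of the stretch (grey). The 12 points in grey lie between 0.39 and 1.09, and those of the next bin between -0.04 and 0.06.

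In bins of 1 Mb, peaks per 100000 were higher in SCAN1 in all 3 comparisons in 17 of 20 bins of the stretch and in 7 of 20 bins from 25 to 45 Mb. The 3 exceptions were the bins starting at 5, 7 and 10 Mb. These counts follow the contrast that chose the stretch. Bins of 1 Mb past 45 Mb or on other chromosomes were not counted. The bin from 16 to 17 Mb has 2 protein-coding genes. It held 2.42 and 8.94 peaks per 100000 in WT replicates 1 and 2, then 6.30, 19.9 and 14.5 in SCAN1#1 replicate 1, SCAN1#1 replicate 2 and SCAN1#2. There the genotypes overlapped across experiments although each SCAN1 library exceeded its own control.

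The richest bin ran from 22 to 23 Mb, with 168 members and 24 protein-coding genes. It held 108 and 72.7 peaks per 100000 in WT replicates 1 and 2, and 165, 107 and 110 in SCAN1#1 replicate 1, SCAN1#1 replicate 2 and SCAN1#2. Here SCAN1#1 replicate 2 lay just below WT replicate 1. The bin from 23 to 24 Mb, with 125 members, held 42.4 and 44.7 in WT against 96.1, 83.1 and 83.4 in SCAN1, with no overlap. The log2 ratio of the whole stretch, 0.82, was 1.00 when 22 to 24 Mb was left out, an alternative chosen after seeing the data.

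The bin from 7 to 8 Mb, which carries 42 protein-coding genes, had only 10 members. The longest stretches without a member were 363 kb at 5620177 to 5982845, 213 kb at 7141705 to 7354627 and 199.7 kb at 7605963 to 7805621. The latter pair lies in the defensin cluster and its duplicated flanks.

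**Figure D2:**
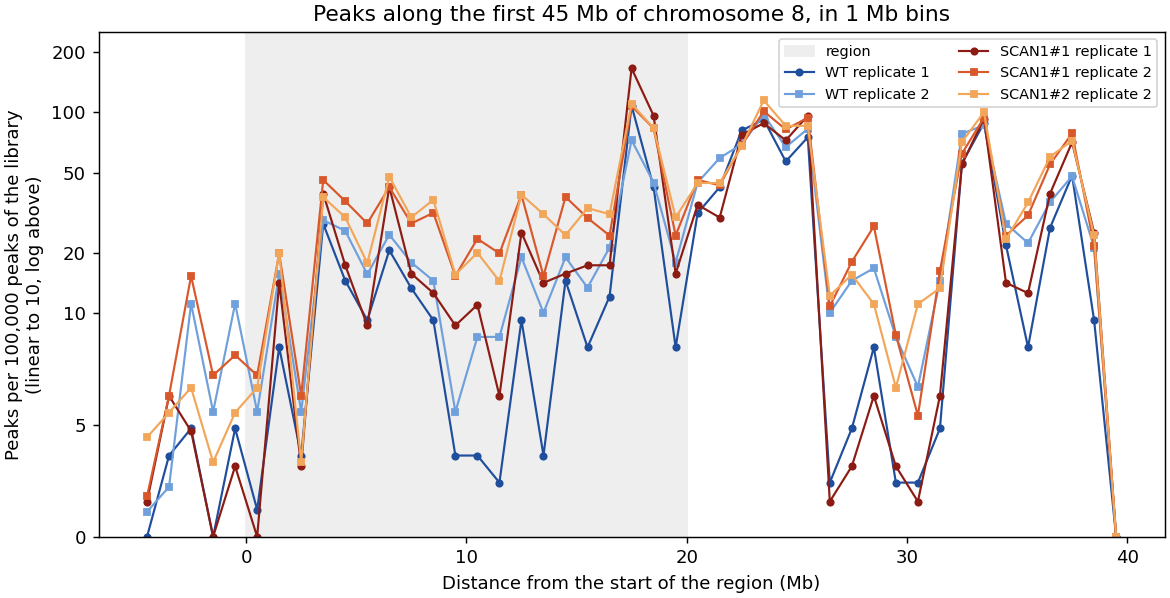
Peaks per 100000 peaks of each library in 1 Mb bins along the first 45 Mb of chromosome 8, by distance from the start of the stretch (grey). The axis is linear to 10 and logarithmic above. Within the grey band the WT lines run mostly below the SCAN1 lines of the same experiment, and the tallest bin there reaches 165 in SCAN1#1 replicate 1.

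Most members were narrow and were seen in few libraries. Their median width was 385 bases (interquartile range 304 to 588, from 210 to 6290), and 514 of 1059 (48.5%) had a peak in 1 library only, against 43.1% of merged regions in the genome. A further 202 had a peak in 2 libraries, 164 in 3, 94 in 4 and 85 in all 5. Those with a peak in all 5 made up 8.03% of members, 12.9% of merged regions on the rest of chromosome 8 and 12.4% in the genome. The members in all 5 had a median width of 1097 bases, and those in 1 library 307 bases.

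By genotype, 39 members (3.68%) had peaks from all 3 SCAN1 libraries and from neither WT library, against 0.945% in the genome. Only 3 members (0.283%) had peaks from both WT libraries and from none of SCAN1, against 1.39%. A peak in any SCAN1 library without one in WT was found for 613 members (57.9%), against 34.0% in the genome. The reverse was found for 65 (6.14%), against 17.7%. All of these follow the contrast that chose the stretch. With a library left out, fewer libraries must share or lack a peak, which raises these counts. The 39 became 129 without SCAN1#1 replicate 1, 47 without SCAN1#1 replicate 2 and 62 without SCAN1#2. It became 62 without WT replicate 1 and 75 without WT replicate 2. The 3 became 8 without SCAN1#1 replicate 1, 10 without SCAN1#1 replicate 2, 10 without SCAN1#2, 39 without WT replicate 1 and 31 without WT replicate 2.

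By experiment, 65 members (6.14%) had a peak in all 3 libraries of experiment 2 and in neither of experiment 1. In the genome the share was 5.28%. Only 5 members (0.472%) had a peak in both libraries of experiment 1 and in none of experiment 2, against 1.63%. The choice did not use this contrast directly. Experiment 2 holds 1 WT and 2 SCAN1 libraries and experiment 1 holds 1 of each, so the choice can shift these shares. Neither share was tested.

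**Figure D3:**
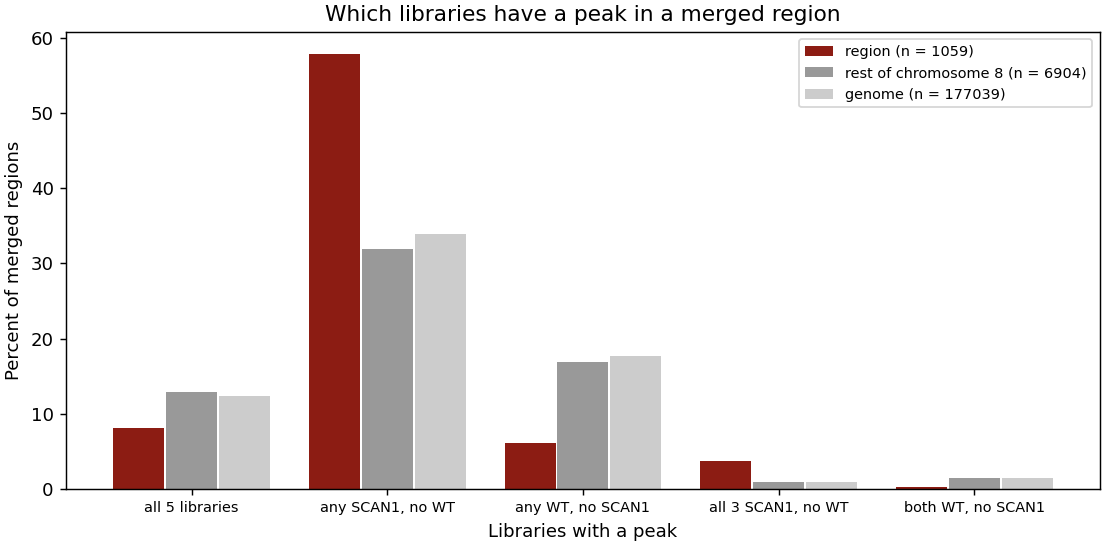
Bars give the percent of merged regions with each pattern of libraries, for the 1059 members, the 6904 merged regions on the rest of chromosome 8 and the 177039 of the genome. Members in all 5 libraries make up 8.03% of the stretch and 12.4% of the genome, and members in all 3 SCAN1 libraries with no WT peak 3.68% and 0.945%.

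Covered bases were compared between pairs of libraries with the Jaccard index, the shared bases over the bases covered in either library. It averaged 0.339 over the 4 pairs of the same experiment (0.312 to 0.382) and 0.267 over the 6 pairs of different experiments (0.230 to 0.295), so these ranges did not overlap. Pairs of the same genotype averaged 0.311 (0.282 to 0.382) and pairs of different genotypes 0.286 (0.230 to 0.339), and these ranges overlapped. Over the whole genome the index was higher, at 0.419 within and 0.340 between experiments. By genotype it was 0.361 for the same and 0.379 for different genotypes there, the reverse order of the stretch. Unequal covered bases limit the index, and they ran here from 134 kb in WT replicate 1 to 381 kb in SCAN1#1 replicate 2. The libraries were thus grouped by experiment more clearly than by genotype in which bases they covered, in the stretch as elsewhere.

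The member with the highest fold enrichment lay in LOXL2, which encodes a lysyl oxidase that cross-links collagen, and in its antisense gene LOXL2-AS1, at chr8:23341904-23345219. Fold enrichment is the authors' value for each peak, relative to the peak caller's background estimate, and is set only against other peaks of the same list. The top peak of this member stood at 81.3-fold and 59.9-fold in WT replicates 1 and 2, and at 51.7, 73.0 and 72.6-fold in SCAN1#1 replicate 1, SCAN1#1 replicate 2 and SCAN1#2. It held the highest fold of the stretch in every library. A neighbour in the same gene at chr8:23352325-23353661 reached 12.04 to 19.54-fold.

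The next member, at chr8:17245637-17247319, lies at the ends of CNOT7, a deadenylase subunit of the CCR4-NOT complex, and VPS37A, an endosomal sorting protein. Its folds were 19.4 and 14.8 in WT, and 27.8, 30.6 and 34.0 in SCAN1#1 replicate 1, SCAN1#1 replicate 2 and SCAN1#2. The member at chr8:9770880-9772524 lies inside TNKS, which encodes tankyrase, a poly-ADP-ribose polymerase of telomeres and other sites. Its folds were 17.1 and 15.2 in WT, then 23.8, 32.8 and 21.5 in the SCAN1 libraries in the same order.

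Of the other strong members, one at chr8:22243741-22245988 covers an end of POLR3D, a subunit of RNA polymerase III, and the microRNA gene MIR320A, with folds of 9.80, 9.15, 11.1, 14.2 and 18.6 in the order WT replicate 1, WT replicate 2, SCAN1#1 replicate 1, SCAN1#1 replicate 2, SCAN1#2. One lay between genes at chr8:11877247-11878114, 9160 bases from the lysosomal protease gene CTSB, with folds of 7.38, 8.72, 14.8, 16.8 and 17.3 in that order. One at chr8:8293433-8296391, 21345 bases from PRAG1, had folds of 5.19, 15.5, 5.31, 16.4 and 19.4. That last member was near the median fold of the stretch's peaks in both lists of experiment 1 (5.05 in WT, 4.85 in SCAN1#1) and far above it in all 3 of experiment 2 (6.06, 5.76 and 6.03).

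The widest members joined neighbouring genes. The widest, 6290 bases at chr8:22599612-22605901, runs from C8orf58 into CCAR2, which encodes an inhibitor of the deacetylase SIRT1. Next came 5965 bases at FHIP2B and NUDT18 (chr8:22103096-22109060) and 5963 bases at RHOBTB2 and TNFRSF10B (chr8:23014382-23020344). The others were 5872 bases at PDLIM2 and C8orf58 (chr8:22593253-22599124) and 5128 bases at REEP4 (chr8:22136953-22142080). All 5 of these members had a peak in every library and lay at gene ends.

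Over the 85 members present in all libraries, the median of the top fold was 5.83 in WT replicate 1 and 7.20 in WT replicate 2, against 6.06 and 7.52 for the 21945 such merged regions of the genome. In SCAN1#1 replicate 1, SCAN1#1 replicate 2 and SCAN1#2 it was 6.30, 9.89 and 9.07, against 5.87, 8.34 and 7.95. The stretch thus lay below the genome's median in both WT lists and above it in all 3 SCAN1 lists. The median covered bases of these members were 496 and 622 in WT, and 747, 804 and 722 in SCAN1, against 669, 755, 631, 843 and 721 for the genome in the same order. These values share the contrast that chose the stretch.

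By position, 81 members (7.65%) lay within 1 kb of an end of a protein-coding gene, 491 (46.4%) inside such genes, 166 (15.7%) in other genes and 321 (30.3%) between genes. Gene ends thus defined make up 3.20% of the sequence here. Of the 85 members in all 5 libraries, 26 (30.6%) lay at gene ends and 49 lay between 20 and 25 Mb. Of the 514 seen in 1 library, 22 (4.28%) lay at gene ends. A member counted at gene ends if any of its bases lay there, which favours wide members. Median widths were 1097 bases for members in all 5 libraries and 307 for those in 1. These shares of members are therefore not of the same kind as the 3.20% of bases. As a log2 ratio of shares pooled over the experiments, SCAN1 exceeded WT by 0.60 at gene ends and 0.83 in gene interiors. It did so by 0.83 in other genes and 0.97 between genes. Each class was higher in all 3 comparisons within experiments, but the order of the classes differed. In SCAN1#1 experiment 1, SCAN1#1 experiment 2 and SCAN1#2 experiment 2, gene interiors gave 0.719, 0.933 and 0.905. Bases between genes gave 0.929, 0.684 and 0.668, so they were not the highest class in experiment 2.

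The stretch was then set against the rest of the genome in 3 measures. An exact two-sided sign-flip permutation test over the 5 libraries has a smallest possible p of 0.0625, so it cannot reach 0.05. The share of peak bases at gene ends was 19.9% and 15.3% in WT replicates 1 and 2 here and 17.2% and 13.2% elsewhere. In SCAN1#1 replicate 1, SCAN1#1 replicate 2 and SCAN1#2 it was 19.4%, 12.8% and 13.6% here and 19.7%, 13.7% and 15.2% elsewhere. It was higher here in both WT libraries and lower in all 3 SCAN1 libraries. The mean difference was 0.382 ± 1.902 percentage points (SD, n = 5, exact permutation p = 0.688, adjusted 0.688 over the 3 measures). This SD and p carry the split by genotype, the contrast that chose the stretch, so no conclusion is drawn from them. The adjustment, here and for fold enrichment below, included the p of peak density, which is not printed. Without the widest 10 members the mean turned to -3.48 points (exact p = 0.0625). It turned to -0.195 without WT replicate 1 and to -0.0465 without WT replicate 2.

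Peak density is close to the share that chose the stretch, so it is given with no p. There were 13.4 and 17.7 peaks per Mb in WT replicates 1 and 2, against 27.3 and 29.6 in the rest of the genome. SCAN1#1 replicate 1 had 17.4 against 21.0, SCAN1#1 replicate 2 36.9 against 36.6, and SCAN1#2 29.8 against 29.7. The stretch was thus sparse in WT, at 0.492 and 0.598 of the rest of the genome, and reached 0.830, 1.01 and 1.00 of it in SCAN1. The mean log2 ratio was -0.40 ± 0.46 (SD, n = 5). The median fold enrichment of peaks differed from the rest by 0.04 ± 0.04 on the log2 scale (SD, n = 5; exact permutation p = 0.25, adjusted 0.375).

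The 39 members that only the 3 SCAN1 libraries shared were of middle width, with a median of 673 bases. Inside protein-coding genes lay 22 of them (56.4%), at gene ends 7, in other genes 4 and between genes 6. Their median distance to the nearest WT peak was 4598 bases: 4 lay within 1 kb of one and 13 over 10 kb away. They touched 20 protein-coding genes. TNFRSF10B held 3, and CTSB, DLC1, DMTN, PSD3, SGCZ, SLC25A37 and SLC39A14 held 2 each.

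By mean fold, the first 4 of them lay inside genes. The first, at chr8:19618647-19619091 in CSGALNACT1, an enzyme of chondroitin sulfate synthesis, had folds of 4.85, 10.8 and 13.2 in SCAN1#1 replicate 1, SCAN1#1 replicate 2 and SCAN1#2. The second, at chr8:18623465-18623800 in PSD3, an exchange factor for the small GTPase ARF6, had 7.12, 10.1 and 10.5. The fourth, after one in TNFRSF10B, was at chr8:13431501-13431831 in DLC1, a GTPase-activating protein and proposed tumour suppressor, with 4.85, 8.59 and 9.04. The 11 listed long genes held 8 of the 39 members (20.5%) and span 22.4% of the sequence of the stretch.

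The third and the next lay in TNFRSF10B and between genes. In TNFRSF10B, which encodes a death receptor for TRAIL, 3 neighbouring members at chr8:23062066-23062809, chr8:23063214-23064134 and chr8:23064423-23065162 made a row. The middle one had folds of 6.73, 10.5 and 8.85 in SCAN1#1 replicate 1, SCAN1#1 replicate 2 and SCAN1#2, and the outer ones 3.48 to 5.37. A pair of intergenic members, at chr8:8401708-8402309 near PRAG1 and at chr8:24699546-24700099, reached 9.66 and 9.47 in their highest library.

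The 3 members of both WT libraries alone were narrow, from 340 to 417 bases. One at chr8:8200000-8200416 in ENPP7P1 and FAM85B had folds of 7.77 and 11.4 in WT replicates 1 and 2. One at chr8:11302125-11302509 in the myotubularin-related gene MTMR9 had 4.66 and 7.96. One at chr8:9096375-9096714 in ERI1, an exoribonuclease that trims histone mRNA ends, had 6.60 and 5.68.

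At the borders, the first member inside was chr8:5009460-5009766, with a peak of 4.31-fold in SCAN1#2 only, and the last was chr8:24999985-25001252, with 8.17 to 15.3-fold in all 5 libraries. The merged region just before the stretch, chr8:4951088-4951613 in CSMD1, had a peak in WT replicate 2 and SCAN1#1 replicate 1. The first after it, chr8:25008330-25008590, had a peak in SCAN1#1 replicate 2 only.

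For genes, the percent of the gene and 1 kb on both sides that peaks covered was computed from lists of equal length. Of 167 protein-coding genes in the stretch, 97 (58.1%) held a peak in any library, against 81.3% of all 19974, and 53 held one in all 5. A mean coverage of at least 2% over the 5 libraries was required for the test across genes, and 29 genes (17.4%) passed it, against 42.4% of all. This filter lets a gene pass through the genotype where it is high, so counts over these 29 are descriptions.

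Of the 29 genes, 14 (48.3%) were higher in SCAN1 in all 3 comparisons within experiments, against 19.4% of the 8472 genes tested, and 4 (13.8%) were lower in all 3, against 15.8%. In 10 (34.5%) all SCAN1 libraries lay above all WT libraries, against 9.48%, and in 2 all lay below, against 6.86%. With the lists as deposited, 15 of the 29 were higher in all 3 and 3 were lower, and 12 and 3 were so with both kinds of list. Over all 167 genes, tested or not, 36 (21.6%) were higher in all 3 and 4 (2.40%) lower, against 11.7% in each direction over all 19974. The median difference was 3.90 percentage points here and 0.08 over all tested genes. With limma and Benjamini-Hochberg adjustment, 0 of 8472 genes (0%) were called for SCAN1 against WT, and 295 (3.48%) had an unadjusted p under 0.05. With the replicate block the unadjusted count was 518, and on a log2 scale limma called 4 genes of the genome at the adjusted threshold. The genes here are part of these counts, and since this contrast chose the stretch nothing is read from them.

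Among genes of proteolysis and cell death, CTSB, the lysosomal protease cathepsin B (chr8:11842524-11868087), was covered over 4.87% and 1.94% of its length in WT replicates 1 and 2. It was covered over 26.1%, 17.3% and 9.80% in SCAN1#1 replicate 1, SCAN1#1 replicate 2 and SCAN1#2. TNFRSF10B (chr8:23020133-23069031) had 2.87% and 3.26% in WT, against 9.96%, 9.77% and 8.71% in SCAN1. Neither gene's groups overlapped, and TNFRSF10B had the smaller spread, at 3.07% ± 0.276 (SD, n = 2) for WT and 9.48% ± 0.675 (SD, n = 3) for SCAN1.

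The other TRAIL receptor genes lie beside TNFRSF10B and held few peaks. TNFRSF10A, a second death receptor, had 1 peak in each WT library, 1 in SCAN1#1 replicate 1 and 2 in both other SCAN1 libraries. The decoy receptor gene TNFRSF10C had at most 1 peak in a library, and TNFRSF10D, the other decoy, had 1 peak in SCAN1#1 replicate 2 alone. TNFRSF10B had 3 peaks in each WT library and 8, 8 and 7 in SCAN1#1 replicate 1, SCAN1#1 replicate 2 and SCAN1#2.

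Among genes of RNA synthesis and decay, POLR3D (chr8:22245133-22254601) had 23.8% and 27.3% in WT replicates 1 and 2, and 29.3%, 42.7% and 33.6% in SCAN1#1 replicate 1, SCAN1#1 replicate 2 and SCAN1#2. Its groups did not overlap, though SCAN1#1 replicate 1 came within a few points of WT replicate 2. CNOT7 had 9.58% and 8.51% in WT and 12.2%, 13.3% and 8.02% in SCAN1, so its groups overlapped. Of the 6 listed genes of RNA processing and transcription machinery, all held a peak and 3 were higher in all 3 comparisons, 1 of them among the 3 tested. Of all genes here 58.1% held a peak and 21.6% were higher in all 3, beside 81.3% and 11.7% of all protein-coding genes.

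Genome and telomere maintenance genes were listed as MCPH1, TNKS, PINX1, NEIL2, CCAR2, XPO7 and CHMP7. PINX1, an inhibitor of telomerase, held no peak. Of the 7 genes 4 were higher in all 3 comparisons, and 3 of these were tested. The untested one, XPO7, encodes an exportin and belongs to this list only loosely. Higher in all 3 were 21.6% of all genes here and 11.7% of all protein-coding genes. CCAR2 (chr8:22604757-22621514) had 27.3% and 14.7% in WT, and 62.0%, 28.4% and 19.7% in SCAN1#1 replicate 1, SCAN1#1 replicate 2 and SCAN1#2. Both libraries of experiment 1 exceeded their counterparts of the same line in experiment 2, and the genotypes overlapped. CHMP7, a nuclear envelope repair protein (chr8:23243637-23261999), had 1.19% and 3.49% in WT and 8.23%, 7.59% and 5.83% in SCAN1, with no overlap. NEIL2, a DNA glycosylase of base excision repair, was at 0% in both WT libraries and at 1.53%, 6.78% and 5.17% in SCAN1 with lists of equal length. As deposited it had 0% and 4.18% in WT and 1.53%, 6.78% and 7.67% in SCAN1, so the groups overlapped.

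Among matrix and signalling genes, BMP1, a procollagen protease (chr8:22165372-22212326), had 4.86% and 3.64% in WT replicates 1 and 2, against 8.79%, 7.94% and 6.93% in SCAN1#1 replicate 1, SCAN1#1 replicate 2 and SCAN1#2. RHOBTB2, an atypical small GTPase (chr8:22950813-23020199), had 6.46% and 8.06% against 15.3%, 11.98% and 10.1%. Neither gene's groups overlapped. LOXL2, which holds the strongest member, had 5.30% and 5.23% in WT and 6.65%, 6.70% and 4.44% in SCAN1, so its groups overlapped. As deposited LOXL2 had 5.30% and 5.54% in WT and 6.65%, 9.67% and 5.95% in SCAN1, with no overlap. Of 13 listed signalling and transcription factor genes, 12 held a peak, with SOX7 the exception. Higher in all 3 comparisons were 5, 1 of them among the 2 tested, beside 21.6% of all genes here and 11.7% of all protein-coding genes.

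Metabolic and transport genes included SLC25A37, the iron carrier mitoferrin of mitochondria, with 1.28% and 2.32% in WT and 6.47%, 7.58% and 3.04% in SCAN1#1 replicate 1, SCAN1#1 replicate 2 and SCAN1#2. SLC39A14, a zinc and manganese transporter, had 2.59% and 1.52% in WT and 8.08%, 5.71% and 2.54% in SCAN1. The first had no overlap, while in the second SCAN1#2 lay just below WT replicate 1. NUDT18, a hydrolase of oxidised nucleotides, had 32.5% and 26.96% in WT and 36.7%, 51.7% and 29.8% in SCAN1. Of the 12 genes on this list 5 were higher in all 3 comparisons, among them the 3 tested. The share was 21.6% of all genes here and 11.7% of all protein-coding genes. NAT2, an acetylating enzyme of the liver and gut, held no peak.

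The genes of highest coverage did not all lean towards SCAN1. REEP4, which clears endoplasmic reticulum from mitotic chromosomes (chr8:22138020-22141907), had 61.8% and 74.5% in WT and 53.6%, 80.8% and 64.4% in SCAN1#1 replicate 1, SCAN1#1 replicate 2 and SCAN1#2. C8orf58 (chr8:22599599-22604142), had 86.5% and 24.97% in WT and 75.9%, 56.5% and 70.3% in SCAN1. Both overlapped, and the WT libraries of C8orf58 differed from each other more than the genotype means did. FHIP2B had 15.97% and 4.84% in WT and 32.4%, 9.23% and 7.78% in SCAN1.

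The 4 genes lower in SCAN1 in all 3 comparisons were SORBS3, XKR5, PDLIM2 and LONRF1. SORBS3, the focal adhesion adaptor vinexin (chr8:22544973-22575788), had 18.8% and 3.80% in WT replicates 1 and 2 and 5.41%, 0% and 0% in SCAN1#1 replicate 1, SCAN1#1 replicate 2 and SCAN1#2. As deposited SORBS3 had 24.01% and 9.54% in WT and 5.41%, 8.08% and 3.47% in SCAN1, with no overlap: its SCAN1 peaks of experiment 2 fall outside the equal lists. XKR5, of the XK family of membrane proteins, had 3.94% and 5.90% in WT and 2.58%, 3.13% and 3.56% in SCAN1. PDLIM2, a PDZ and LIM domain protein, had 68.4% and 37.7% in WT and 56.2%, 23.6% and 37.4% in SCAN1. For PDLIM2 the smallest difference was 0.254 points, and as deposited SCAN1#2 was higher than its control, at 43.1% against 37.7%. With equal lists XKR5 showed no overlap, SORBS3 and PDLIM2 did, and LONRF1 differed by only 0.143 points between the means.

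**Figure D4:**
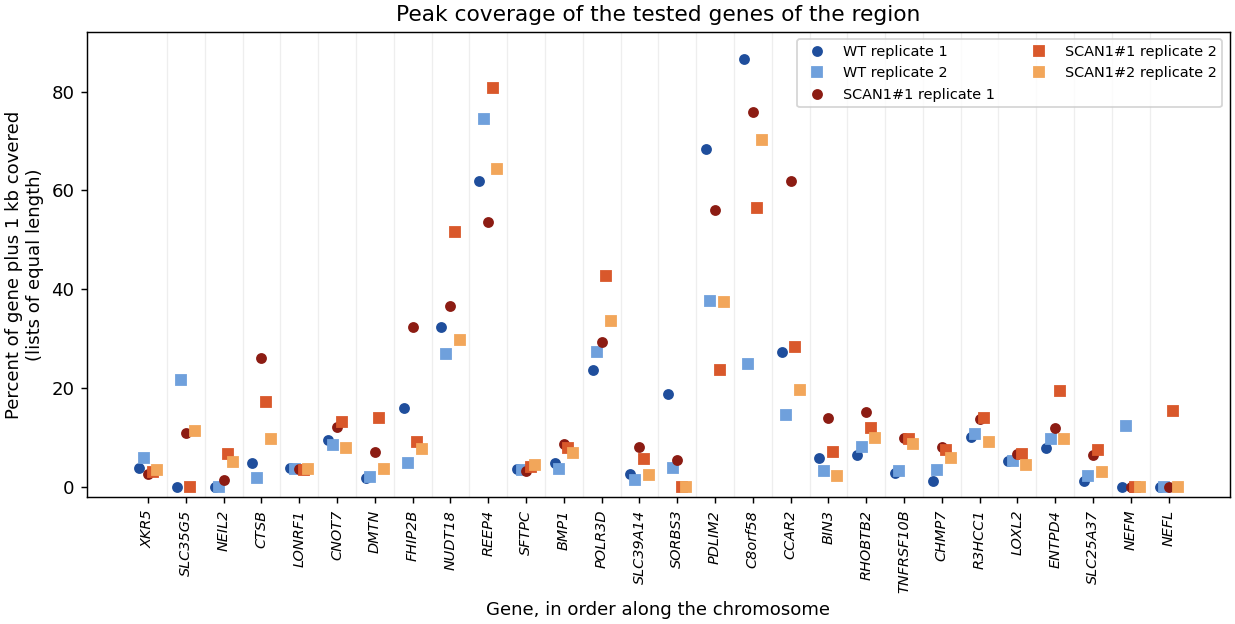
Points give the percent of each tested gene and its 1 kb flanks covered by peaks in each library, from lists of equal length, with 28 of the 29 tested genes in order along the chromosome. CTSB and TNFRSF10B show both WT points below all SCAN1 points, while C8orf58 and PDLIM2 spread widely within WT.

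A list of 11 long genes, the shortest of 122 kb, spans 22.4% of the sequence, and none of them passed the coverage filter. PEBP4, at 228 kb, is not on that list and held 3 and 5 peaks in WT and 5, 9 and 8 in SCAN1. Together they held 33 and 43 peaks in WT replicates 1 and 2, and 38, 116 and 103 in SCAN1#1 replicate 1, SCAN1#1 replicate 2 and SCAN1#2. Per 100000 peaks of the library these were 39.98 and 48.1 in WT and 59.9, 105 and 115 in SCAN1. The genotypes did not overlap on that scale, and both SCAN1 libraries of experiment 2 were far above the one of experiment 1. The listed genes held 10.9% to 17.3% of a library's peaks in the stretch, less than their share of the sequence.

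Per 100000 peaks, 6 of the 11 long genes were higher in SCAN1 in all 3 comparisons. In 5 of them, SGCZ, DLC1, TUSC3, XKR6 and MTUS1, all SCAN1 libraries exceeded both WT libraries. On that scale 17 of the 20 bins of 1 Mb in the stretch were also higher in all 3. This contrast chose the stretch, and genes elsewhere were not counted on that scale, so nothing about long genes is read from these counts. SGCZ, a sarcoglycan of muscle membranes and the longest at 1154 kb, had 2 and 6 peaks in WT and 7, 19 and 14 in SCAN1#1 replicate 1, SCAN1#1 replicate 2 and SCAN1#2. DLC1 had 6 and 7 peaks in WT and 7, 18 and 24 in SCAN1. TUSC3, a subunit of the enzyme that attaches N-linked sugars, had 3 and 5 in WT and 5, 13 and 10 in SCAN1. TNKS, which has the strong member named above, had 6 and 5 in WT and 5, 6 and 6 in SCAN1, and so was nearly level.

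**Figure D5:**
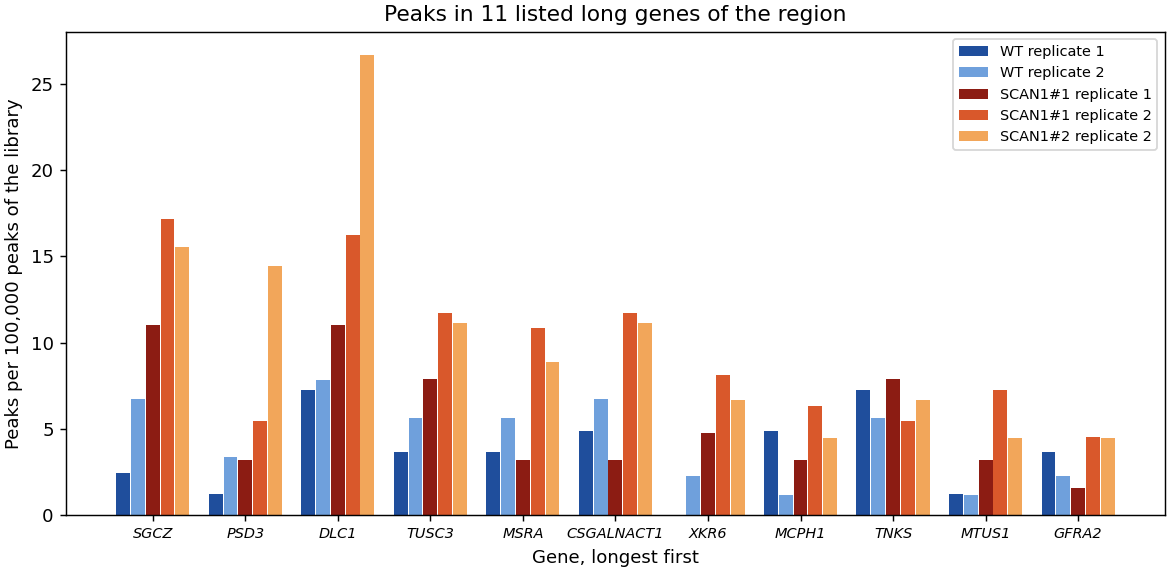
Bars give peaks per 100000 peaks of the library in the 11 listed long genes, longest first, for each of the 5 libraries. DLC1 reaches 26.7 in SCAN1#2 against 7.27 and 7.83 in WT, and TNKS lies between 5.42 and 7.88 in all libraries.

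Families of recent copies held almost no peaks. Grouped after their values were seen, 25 of 27 defensin and SPAG11 genes, 6 of 6 USP17L genes and 19 of 19 FAM90A genes had no peak in any library, while 95 of the other 115 genes (82.6%) had one. Defensins are antimicrobial peptides of neutrophils and epithelia, and USP17L genes encode deubiquitinases. Among the defensin list, DEFB1 had 1 peak, in WT replicate 2, and SPAG11B had 1 in each library but SCAN1#1 replicate 1. Reads from near-identical copies can be split or dropped in mapping, and how they were handled is not known here, so these genes are uncertain.

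Genes of lineages unrelated to bone also held peaks: 11 of 15 had one within the gene, and ADAMDEC1, NAT2 and SLC18A1 had none. SFTPC, the lung surfactant protein C gene, had none within the gene: its coverage came from its 1 kb flank, where a member of all 5 libraries runs into BMP1. NEFL and NEFM, neurofilament genes, had coverage above 0 in 1 library each with lists of equal length, and a peak in 3 libraries each as deposited. Of 11 proposed tumour suppressors of this arm, 10 held a peak and 4 were higher in all 3 comparisons. Of 11 lysosome and trafficking genes all held a peak and 5 were higher in all 3. Of 8 cytoskeleton and centrosome genes 3 were higher and 2 were lower in all 3. Of 7 matrix and secreted protein genes 3 were higher in all 3. Beside these lists, 58.1% of all genes here held a peak, 21.6% were higher in all 3 and 2.40% lower. Over all protein-coding genes the shares were 81.3%, 11.7% and 11.7%.

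The difference between the experiments was tested with limma across all genes, with genotype in the model. With Benjamini-Hochberg adjustment 0 of 8472 genes (0%) were called for experiment 2 against experiment 1, and the smallest adjusted p was 0.0839. An unadjusted p under 0.05 was found for 1820 genes (21.5%), and for 4 of the 29 here, all lower in experiment 2. These were FHIP2B, PDLIM2, SORBS3 and CCAR2. At any p, 5166 of the 8472 tested genes and 17 of the 29 here were lower in experiment 2. The difference was -18.4 percentage points for FHIP2B (SE 3.92, limma adjusted p = 0.124), -27.8 for PDLIM2 (SE 7.39, limma adjusted p = 0.157) and -27.1 for CCAR2 (SE 8.20, limma adjusted p = 0.183). On a log2 scale limma called 2 genes in the genome and 0 here. With the lists as deposited 6 of 42 tested genes here had an unadjusted p under 0.05, beside 1473 of 9718 over all genes. Of the 6 here, 4 were higher in experiment 2. That fit differs both in the lists and in the genes that passed the filter. With equal lists and no filter 7 of 90 genes here had such a p, beside 2482 of 15427 over all genes. Of the 7 here, 2 were higher in experiment 2.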

How the data were processed

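Nuclei that had not been crosslinked were used, hybrids were pulled down with S9.6, and RNase H was applied to the immunoprecipitated samples, per the labels' protocols. The submitters' processing notes name MACS3 3.0.0a6, deepTools 3.5.1, BWA 0.7.17-r1188, SAMtools 1.9 and FastQC 0.11.5, with hg38. Their roles, the control and the calling options: not given in the sources used here. Each DRIP library has 1 peak list of its own. Per the layout of the deposited files, a peak carries a fold enrichment (a ratio), a -log10 p-value and a -log10 q-value, and a score.

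The members, gene lists and tests were chosen with earlier results of these data known. Peaks that shared at least 1 base were merged. Genes come from RefSeq on GRCh38.p14, a table without strand or exons, so starts and ends of genes form 1 class, gene ends. Coverage of genes was tested with limma 3.58.1 in R 4.3.3 and other values were computed with Python 3.11.15, both tested on simulated data. Named genes were the 12 of highest mean coverage, up to 8 per direction with the largest smallest difference, and genes of the lists. Named members were the 8 of highest mean fold, the 5 widest, up to 6 per genotype-only class and those at the borders. The outer members of the row in TNFRSF10B, the 1 Mb bins and the families of gene copies were picked after their values were seen.

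The replicate numbers mark the experiment, since the antibody lots go with them. Deviations of gene coverage from the genotype means correlated at 0.612 (experiment 1), 0.325 and 0.470 (experiment 2) over 8472 genes. Deviations within a genotype cancel each other, so these values are not separate evidence that the numbers pair the samples. Alternatives were lists of equal length, -log10 q of at least 5, merging within 500 bases, at least 50% of a merged region covered, the rest of chromosome 8 as background, the widest 10 members or 22 to 24 Mb left out, no filter, a log2 scale, the replicate block and leaving out each library. The coverage of 1 tested gene is not reported here. Sequences of chromosome 8 and the 5 input samples were not used here.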

Additional observations from a re-analysis of the deposited data

Results flagged for a closer look

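In 7 of the 29 tested genes of the stretch the SCAN1 minus WT difference in coverage pointed one way in every library of one group and the other way in the other. Each such group holds 1 or 2 libraries, and none of these differences was tested. Such genes were not counted over the rest of the genome, so nothing is read from their number here. Between the lines, each set against the WT library of its experiment, CNOT7 differed by 3.70 percentage points in SCAN1#1 and -0.485 in SCAN1#2, BIN3 by 5.94 and -1.18, R3HCC1 by 3.46 and -1.70, and LOXL2 by 1.41 and -0.796. With the lists as deposited, SCAN1#2 was higher than its control in CNOT7 (1.40), BIN3 (4.62) and LOXL2 (0.408), and lower in R3HCC1 alone of these (-0.903). SCAN1#2 is 1 library.

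Between the experiments, SLC35G5 differed by 10.99 points in experiment 1 and -16.03 in experiment 2, C8orf58 by -10.6 and 38.4, and SFTPC, covered in its flank only, by -0.341 and 0.709. As deposited the mean for SLC35G5 in experiment 2 was 0.0149, and C8orf58 and SFTPC kept their signs. Experiment 1 holds 1 comparison, and both comparisons of experiment 2 use WT replicate 2, in which the coverage of C8orf58 was 24.97% against 86.5% in WT replicate 1.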

How the results depend on the processing

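The share of peak bases at gene ends, stretch minus rest of genome, reversed from 0.382 to -3.48 points without the widest 10 members, and ranged from -0.195 to 0.875 with each library left out; against the rest of chromosome 8 it was 2.97 (exact permutation p = 0.0625). The 39 members of SCAN1 alone became 12 at a -log10 q of at least 5 and 23 with lists of equal length, and 47 to 129 with a library left out. The 85 members of all libraries became 52 at that q and 32 with at least 50% of the merged region covered, and 86 to 123 with a library left out. The 3 members of WT alone became 7 with that cover and 5 with equal lists, and 8 to 39 with a library left out; fewer libraries must then share or lack a peak. The cause of the other changes was not tested.

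The log2 ratio of shares, 0.82, was 0.76 with the replicate block and 0.67 to 0.96 with a library left out. The log2 ratio of peak density ranged from -0.51 to -0.25 and that of fold enrichment from 0.02 to 0.04. The count of called genes here was 0 in every fit run, including limma with the replicate block. The block moved the unadjusted count over all genes from 295 to 518, and its count of adjusted calls stayed 0. Where leaving out a library left 1 in an arm, that library was assumed to vary like the others.

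With 2 WT and 3 SCAN1 libraries, of which SCAN1#2 gave 1, precision is set by their number. Peak lists carry no signal below the caller's limit, so no peak is not the same as no signal. The lists differ in length, and their read depth and input signal were not analysed here.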
